A study of Rattus norvegicus with 32 samples.

Results

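The genes described here are those of the motile cilium axoneme in RNA-seq libraries of 4 brain regions of the rat. They were chosen by name: every gene whose symbol starts with Dnah, Dnai, Cfap, Rsph, Tekt, Drc or Spag followed by a digit was taken, and those with at least 100 reads over all libraries were kept. Of 28914 genes in the count files, 67 had such a name and 60 of these reached 100 reads, among 17249 genes that did so in all. They comprise 25 Cfap, 10 Dnah, 2 Dnai, 3 Drc, 6 Rsph, 9 Spag and 5 Tekt genes and lie on 20 chromosomes. Cfap58, Cfap58l1, Cfap97d1, Rsph4a, Spag11a, Spag11bl and Spag4 stayed below 100 reads. Foxj1, which the rule also names, was not analysed here. The total count of a member over the series ran from 126 (Spag6) to 209314 (Spag9). Before each comparison a filter on low counts was applied, and it left 58 of the 60 members in the comparisons of the regions over all libraries (without Spag6 and Spag16).

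The rats were male Sprague-Dawley rats that received METH (methamphetamine, 10 mg/kg) or saline (Sal) in 4 intraperitoneal injections given every 2 h, and the tissue was taken a day after the last of them. The nucleus accumbens (NAc) and the subventricular zone (SVZ) were punched from brain slices, and the dentate gyrus (DG) and the CA fields of the hippocampus were scooped out. Each of the 8 groups of region and treatment held 4 samples, 32 in all, which are named below by region, treatment and replicate number. The p-values measure the spread between these samples, for which no source used here names the animals. The methods describe the 4 regions as dissected from the same brains, and the file headers repeat the same 8 library numbers in the NAc, DG and CA, so libraries of different regions may share animals. SVZ METH 1 and 2 share a library number in the headers, as do SVZ METH 3 and 4. That group may therefore hold fewer animals than libraries. Spreads and p-values that use it would then rest on fewer animals than the 4 samples counted. The fits treat all libraries as 32 separate samples.

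Motile cilia are the beating hairs of a few cell types. Their core, the axoneme, is a ring of microtubule doublets around a central pair. Dynein arms on the doublets provide the force, radial spokes and the nexin-dynein regulatory complex control it, and tektins and many Cfap proteins line or brace the microtubules. In the brain such cilia are carried by ependymal cells, which line the ventricles and move the cerebrospinal fluid, and the SVZ lies directly under this lining. The same genes serve the sperm tail, and a few of them also work in cells that have no motile cilium.

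Several libraries stood apart from their label before any of the genes was compared. Libraries are described in CPM (counts scaled to a common library size), relative to upper-quartile library sizes, in which 1 read was worth 0.0442 to 0.0934 CPM at totals of 11094002 to 21869773 reads. The library labelled DG Sal 3 held 2090 CPM of 10 striatal medium spiny neuron markers, against 188 to 481 CPM in the other DG libraries, and the library labelled NAc METH 3 held 287 CPM, against 1741 to 9603 CPM in the other NAc libraries. SVZ Sal 1, METH 2 and METH 4 held 2302, 1990 and 1381 CPM of 8 thalamic markers (183 to 669 CPM in the other SVZ libraries), with 9529, 13490 and 14010 CPM of the myelin gene Mbp. Ttr, the transthyretin gene that dominates choroid plexus, was at 7128 CPM in SVZ METH 3, 5268 in DG METH 3, 1904 in CA Sal 2 and 1764 in DG Sal 4, and at 328 CPM or less elsewhere. The file headers give all 8 SVZ libraries a name series of their own, so that region and library series cannot be told apart. In 4 of them (Sal 1, Sal 2, METH 2 and METH 4) the name also carries the tag EXTRA. The regions were checked with their markers. All 10 medium spiny markers were higher in the SVZ than in the mean of the other regions (unadjusted p under 0.05), but 0 were higher or lower by that p than in the NAc, the striatal region (median log2 fold change -0.708), so they did not tell the SVZ from the NAc. Prox1, a marker of dentate granule neurons, was at 27.1 to 315 CPM in the DG and 33.8 to 302 CPM in the CA and did not tell these regions apart.

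Compared per kilobase of gene model, the members differed widely in level. The median over the 60 members was 2.17 CPM per kb, with a range from 0.133 (Spag6) to 56.8 (Spag9). The top 3 levels belonged to members that are known to work outside the axoneme as well: Spag9, a scaffold of kinase signalling and motor transport, at 56.8 CPM per kb, Cfap36 at 52.1 and Cfap20 at 24.2. Over the 7 members of this kind the median was 18.5 CPM per kb, and over the 53 others 1.64. Among the 53 the highest level was that of Cfap298, an assembly factor of the dynein arms, at 18.8 CPM per kb, followed by Cfap126 at 9.05 and the central pair members Cfap69 at 7.0 and Spag6l at 6.35. The most abundant of the spoke genes was the spoke head gene Rsph9 at 6.19 CPM per kb, of the regulatory complex Drc3 at 5.75 and of the heavy chains the outer arm gene Dnah9 at 5.23. By region the median of the 53 was 3 CPM per kb in the SVZ, 1.47 in the DG, 1.05 in the CA and 0.993 in the NAc. The mean level was highest in the SVZ for 48 of the 60 members, in the CA for 5, in the DG for 4 and in the NAc for 3.

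**Figure D1:**
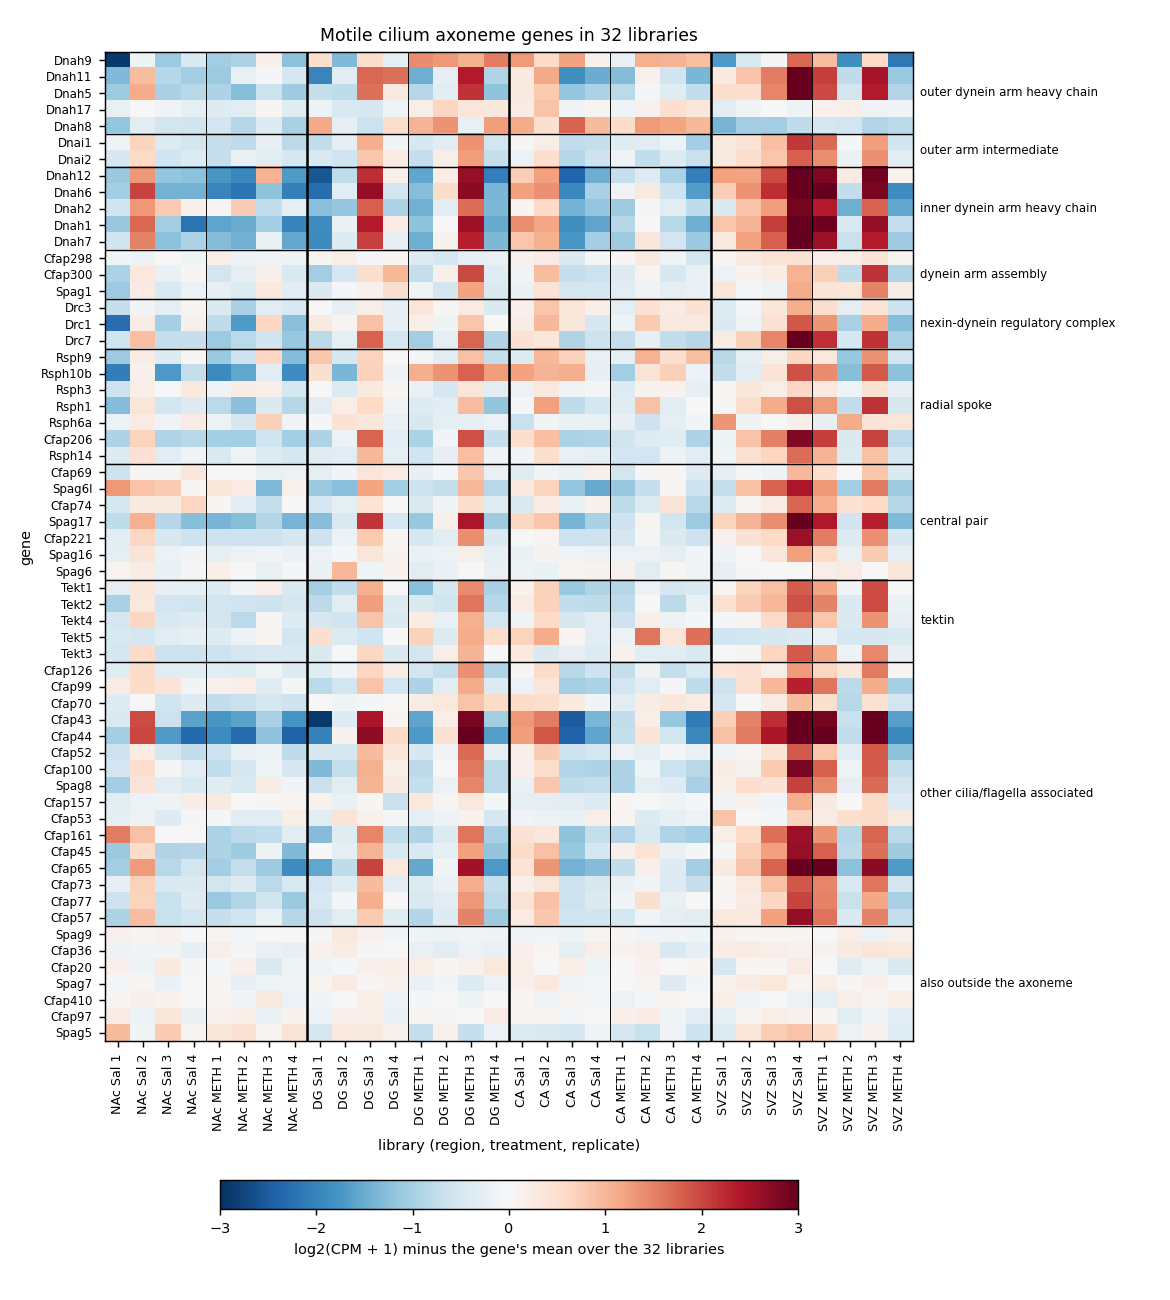
Heat map of the 60 members (rows, grouped by role) in the 32 libraries (columns, grouped by region and treatment), as log2(CPM + 1) minus the mean of each gene. SVZ Sal 4, METH 1 and METH 3, with DG Sal 3 and DG METH 3, are high over most rows, and the rows of the members known outside the axoneme other than Spag5 stay near their mean in all libraries. Colours run from -3 to 3.

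The first comparison asks whether these genes were more abundant in the SVZ, over both treatments (8 SVZ libraries against 24, in 1 fit of all 8 groups). Dnah12, an inner arm dynein heavy chain, was at 37.9, 37.4, 63.3 and 229 CPM in SVZ Sal 1 to 4 and at 115, 18.7, 122 and 16.6 CPM in SVZ METH 1 to 4. It was at 6.63, 39.5, 6.35 and 6.0 CPM in NAc Sal and at 3.92, 3.29, 33.0 and 4.07 in NAc METH. It was at 1.77, 8.79, 75.7 and 17.4 CPM in DG Sal, 4.59, 18, 101 and 2.97 in DG METH, 26.7, 37.9, 2.16 and 4.96 in CA Sal and 9.28, 11.6, 7.61 and 2.96 in CA METH. SVZ Sal 4, METH 1 and METH 3 lay above all 24 libraries of the other regions, and the other SVZ libraries lay within the range of the DG. The mean was 92.0 ± 92.3 CPM (SD, n = 4) in SVZ Sal and 68.0 ± 58.1 in SVZ METH, against 7.86 ± 3.66 to 31.6 ± 46.6 in the 6 other groups. In edgeR's quasi-likelihood test its SVZ log2 fold change was 2.30 (SE 0.58, FDR = 0.00307), where FDR is the Benjamini-Hochberg adjusted p over all genes tested.

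A gene is called below when its FDR is under 0.01 and its fold change is above 2. By this rule 24 of the 58 members tested rose in the SVZ and 2 fell, against 3.7% and 1.83% of all 16122 genes tested. By an unadjusted p under 0.05, 44 members were higher and 2 lower (28.2% and 18.7% of all genes). The median log2 fold change of the members was 1.18, and that of all genes 0.0534. Even so, for 0 of 58 members did all SVZ libraries lie above all others, or all below them (0.136% and 0.062% of all genes). In these tissue samples more ciliated cells and more RNA per ciliated cell cannot be told apart.

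The dynein arms did not move as a block. Of the inner arm heavy chains, the motors that shape the beat, 4 of 5 were called higher, with a median log2 fold change of 2.30 over the 5: Dnah6 (2.48, SE 0.66), Dnah1 (2.43, SE 0.60), Dnah12 and Dnah7 (2.13, SE 0.60), while Dnah2 (1.46, SE 0.49) had an FDR of 0.0208. Both intermediate chains of the outer arm, which hold its motors to the doublet, were called higher. Dnai1 was at 4.19, 4.58, 6.97 and 17.3 CPM in SVZ Sal and 12.8, 3.14, 9.12 and 1.81 in SVZ METH, against 1.4 to 5.74 in the NAc, 1.53 to 9.75 in the DG and 1.08 to 3.82 in the CA. Its log2 fold change was 1.44 (SE 0.33, FDR = 0.00163), although SVZ Sal 4 and METH 1 alone lay above all libraries of the other regions. SVZ METH 2 and METH 4 were within the range of each of the other regions. Dnai2 lay between 0.51 and 5.69 CPM in the SVZ and between 0.0617 and 3.54 elsewhere, with a log2 fold change of 1.85 (SE 0.47, FDR = 0.00343).

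The heavy chains of the outer arm, which give most of the power, split. Dnah5 was called higher (log2 fold change 1.82, SE 0.46) and Dnah11 stood at 1.68 (SE 0.51, FDR = 0.0119). Dnah9, the most abundant heavy chain per kb, was at 15.2, 37.8, 51.2 and 174 CPM in SVZ Sal and 101, 13.9, 79.7 and 11 in SVZ METH. In the DG it was at 73.8, 20.5, 75.9 and 42.4 CPM in the saline and 143, 131, 111 and 153 in the METH libraries, and in the CA at 56.3 to 128 in saline and 44.6 to 111 in METH. Its mean was higher in the DG (93.8 CPM) and CA (93.6) than in the SVZ (60.5), the NAc was at 30.9, and the groups of the SVZ, DG and CA overlapped widely. Its log2 fold change in the SVZ was -0.03 (SE 0.38, FDR = 0.961). Dnah17 was at -0.11 (SE 0.13, FDR = 0.537), in the same narrow range of 1.58 to 5.54 CPM over all 32 libraries. It overlaps Pgs1 on the opposite strand, and the counting did not use strand.

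Dnah8, an outer arm heavy chain best known from the sperm tail, had the lowest p of all members and moved the other way. It was at 0.0471, 0.327, 0.339 and 0.614 CPM in SVZ Sal and 0.940, 0.825, 0.487 and 0.557 in SVZ METH, which for SVZ Sal 1 is a single read. In the CA it was at 4.93, 2.81, 8.27 and 4.29 CPM in saline and 3.01, 5.60, 5.20 and 4.4 in METH, without overlap with the SVZ. The DG libraries were at 5.07, 1.27, 0.757 and 2.98 CPM in saline and 4.59, 5.93, 1.33 and 5.5 in METH, so that DG Sal 3 alone was within the SVZ range. The NAc libraries, at 0.231 to 1.17 CPM, overlapped the SVZ throughout. Its SVZ log2 fold change was -2.20 (SE 0.37, FDR = 7.6e-05). Tekt5, a tektin of the sperm tail, also fell, by 1.67 on the log2 scale (SE 0.43, FDR = 0.00337), from means of 1.21 CPM in the DG and 2.14 in the CA to 0.309 in the SVZ, with 0.445 in the NAc. At 4 to 11 reads in the SVZ libraries, it passed the filter on low counts through the regions where it is higher.

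Of the tektins, rods inside the doublets, Tekt1, Tekt2 and Tekt3 were called higher. Tekt1 was at 3.81, 6.27, 7.41 and 15.1 CPM in SVZ Sal and at 9.35, 3.30, 16.9 and 3.57 in SVZ METH, with 2.34 to 4.76 in the NAc, 0.930 to 11.2 in the DG and 1.11 to 6.39 in the CA (log2 fold change 1.38, SE 0.37, FDR = 0.00469). Tekt2 was at 2.12, 2.90, 3.53 and 7.47 CPM in SVZ Sal and 5.33, 0.670, 7.83 and 0.974 in SVZ METH, with 0.154 to 5.89 elsewhere (log2 fold change 1.94, SE 0.48, FDR = 0.00268). For both, SVZ Sal 4 and METH 3 alone lay above all libraries of the other regions, and the other SVZ libraries were among them. Tekt4 was at 1.13 (SE 0.38, FDR = 0.0216).

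In the radial spokes 2 of 7 members were called higher, Rsph1 (log2 fold change 1.58, SE 0.41, FDR = 0.00362) and Cfap206 (2.71, SE 0.69, FDR = 0.00347). Rsph1, a protein of the spoke head, was at 2.5, 3.93, 6.34 and 11.9 CPM in SVZ Sal and 7.21, 1.03, 14.3 and 1.44 in SVZ METH. Its range elsewhere was 0.386 to 6.94 CPM. Rsph9, another spoke head gene, had a log2 fold change of 0.07 (SE 0.34, FDR = 0.893) and overlaps Mrps18a on the opposite strand. Rsph10b, at 4.49 CPM in the NAc, 19.5 in the DG, 15.1 in the CA and 17.8 in the SVZ, was at 0.80 (SE 0.40, FDR = 0.114). Rsph6a, known from sperm, was at 0.84 (SE 0.22, FDR = 0.00359), under the 2-fold threshold, and was highest in SVZ Sal 1 (6.83 CPM) and METH 2 (5.82), where the members just described were low. It overlaps RF00105 on the opposite strand.

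The nexin-dynein regulatory complex, the linker between doublets, gave 1 call among 3. Drc7 rose (log2 fold change 2.63, SE 0.60, FDR = 0.00141), at 1.74, 2.85, 5.42 and 19.2 CPM in SVZ Sal and 9.61, 0.619, 9.47 and 0.186 in SVZ METH. The more abundant Drc1 was at 0.62 (SE 0.36, FDR = 0.177) and Drc3 at 0.29 (SE 0.17, FDR = 0.199), with Drc1 overlapping LOC108348062 on the opposite strand. Of the central pair members, 2 of 5 tested were called. Cfap221 (log2 fold change 3.03, SE 0.69, FDR = 0.00146) and Spag17 (2.81, SE 0.73, FDR = 0.004) had the largest values of all members. Cfap221 had 0 reads in 8 of the 24 libraries outside the SVZ, each of which allows a level of up to 3 reads, and so its fold change depends on the small count that the fit adds. Outside the SVZ it exceeded 9 reads only in NAc Sal 2 (21), DG Sal 3 (26) and DG METH 3 (65). It therefore passed the filter on low counts only with its SVZ libraries, where it is high, and its call is not independent of that filter. Drc7, Cfap221 and Spag17 were singled out after their values were seen, as were Cfap69, Cfap126, Spag6l, Dnah2, Dnah5, Dnah7, Dnah11, Cfap44, Cfap65, Cfap70, Cfap206, Tekt3 and Tekt4.

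Among the 16 other Cfap and Spag members of the axoneme 9 were called higher and 15 had a higher value with an unadjusted p under 0.05, with a median log2 fold change of 1.65. They included Cfap44 (2.72, SE 0.76) and Cfap43 (2.41, SE 0.66), partners that tether the motor domains of an inner arm dynein, Cfap65 (2.57, SE 0.67) and Cfap57 (1.83, SE 0.48). Cfap43 was at 11.2, 19.7, 33.4 and 98.0 CPM in SVZ Sal and 53.5, 3.66, 69.6 and 1.39 in SVZ METH, a range of 1.39 to 98.0 within 1 region. Cfap53, which helps to dock the outer arms, had the lowest p after Dnah8 and a smaller change (log2 fold change 0.68, SE 0.13, FDR = 2.71e-04). It was at 7.96, 3.98, 3.73 and 6.97 CPM in SVZ Sal and 4.86, 5.93, 6.24 and 4.92 in SVZ METH, against 2.47 to 5.44 in all other libraries, so that its SVZ METH libraries lay above all other METH libraries (as for 1.63% of all genes). The assembly factors of the dynein arms gave 0 calls among 3, and Cfap298 passed the FDR threshold (7.24e-04) at a log2 fold change of 0.39 (SE 0.08). It was at 23.4 to 30.6 CPM in the SVZ and 14.9 to 27.7 elsewhere.

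The 7 members known also outside the axoneme gave 0 calls, and their median log2 fold change was 0.102. Spag9 was at 367 to 478 CPM in the SVZ and at 373 to 509 in the other regions (log2 fold change 0.10, SE 0.05, FDR = 0.0775). Cfap36 differed by little, at 79.7 to 95 CPM in the SVZ and 53.8 to 86.0 elsewhere (0.33, SE 0.06, FDR = 3.13e-04), and Spag7 was at 0.21 (SE 0.06, FDR = 0.00559). Cfap20 (-0.15, SE 0.08, FDR = 0.159), Cfap410 (0.05, SE 0.06) and Cfap97 (-0.08, SE 0.08) had means of 25.9 to 30.7, 22.5 to 23.9 and 16.1 to 17.7 CPM over the regions.

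**Figure D2:**
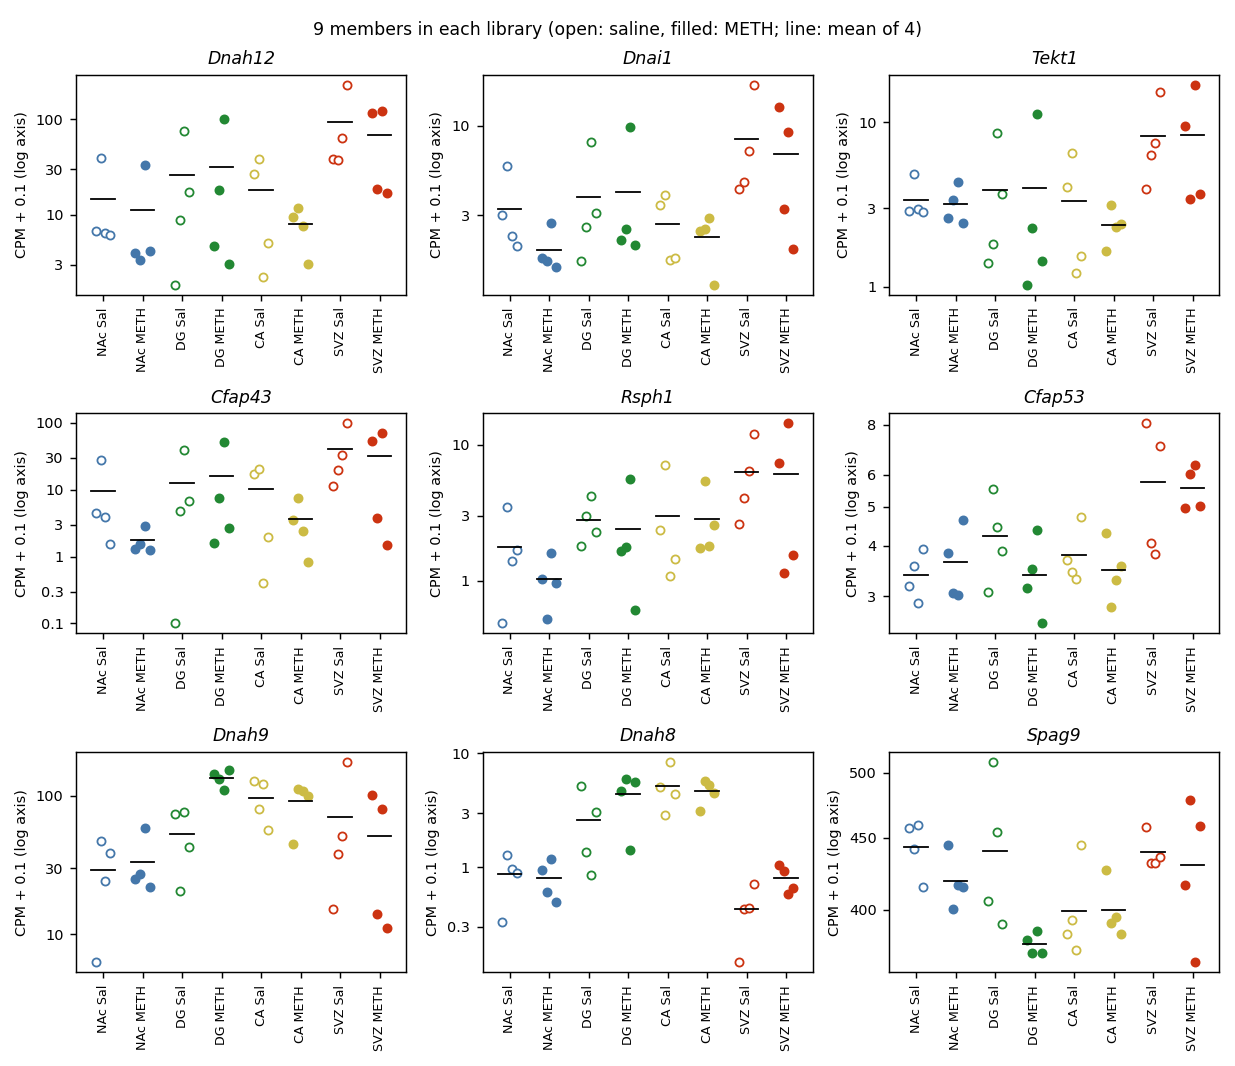
CPM + 0.1 on a log axis for 9 members in the 8 groups, with open circles for saline libraries, filled circles for METH libraries and a line at the mean of 4. Dnah12, Dnai1, Tekt1, Cfap43 and Rsph1 spread over a wide range within the SVZ, Dnah8 is lowest in the SVZ and NAc, and Spag9 is level across all groups.

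**Figure D3:**
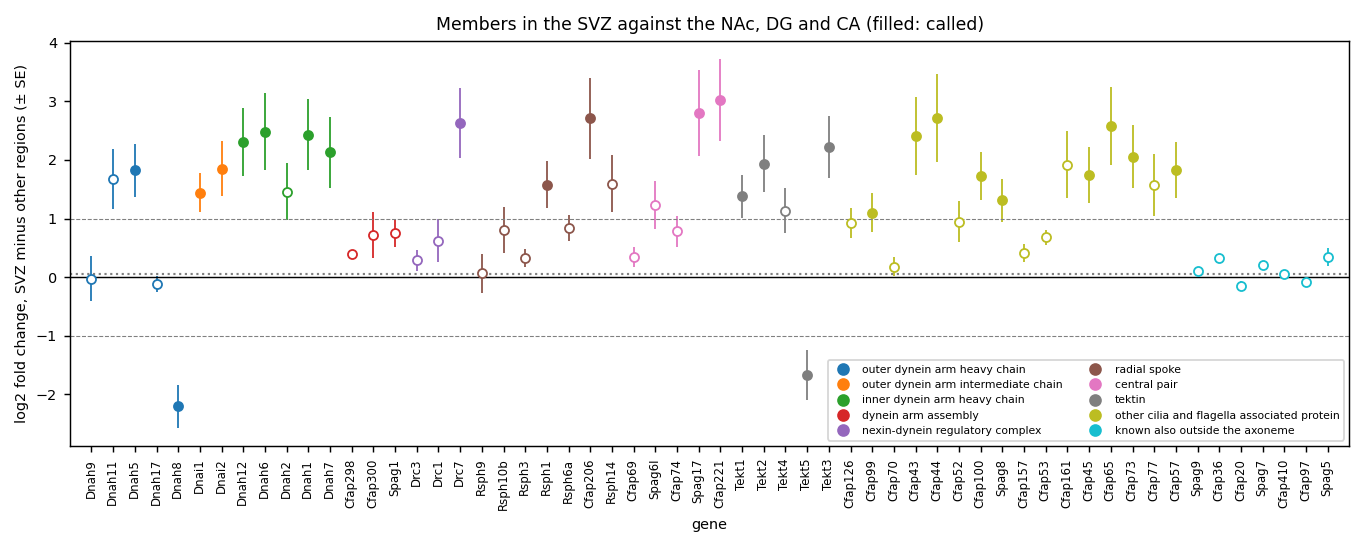
Log2 fold change (SVZ minus all other regions) of 58 members, with bars of 1 SE, by role. Filled points are the 24 members called higher and the 2 called lower, the dotted line is the median of all genes (0.0534) and the dashed lines mark a 2-fold change. The inner arm heavy chains lie above 1, and Dnah8 and Tekt5 lie below -1.

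These calls rest on few libraries. Without SVZ Sal 4, 0 members were called higher (35 at an unadjusted p under 0.05, median log2 fold change 0.912), while Dnah8 and Tekt5 were still called lower. Without SVZ METH 3 there were 5 calls and without SVZ METH 1 there were 10. Without SVZ Sal 1, METH 2 and METH 4, whose thalamic markers were high, 36 members were called higher and 1 lower, and without DG Sal 3 and NAc METH 3, 31 and 2. Counts from such refits, here and below, stand without the share of all genes called in the same fit. That share can also change with the libraries left out, so these counts do not show a change particular to the members.

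Split by treatment, neither set of 16 libraries gave a call in the higher direction. In the saline libraries 0 of 58 members were called in either direction (0.0322% of 15515 genes were called higher and 0.00645% lower), and by an unadjusted p under 0.05, 37 were higher and 2 lower (12.9% and 8.87% of all genes). The median log2 fold change was 1.26. The lowest FDR values belonged to Dnah8 (-3.02, SE 0.87, FDR = 0.0716), Cfap298 (0.35, SE 0.10, FDR = 0.0768) and Cfap57 (1.99, SE 0.60, FDR = 0.0809). Without SVZ Sal 4 the number at an unadjusted p under 0.05 was 4 in place of 37 and the median was 0.502. In the METH libraries 0 of 55 members were called (0.833% of 15615 genes were called higher and 0.314% lower), by the unadjusted p 24 were higher and 3 lower (19.8% and 15.1%), and the median was 0.994. Cfap53 (0.72, SE 0.16, FDR = 0.00913) passed the FDR threshold under 2-fold, followed by Cfap36 (0.43, SE 0.10, FDR = 0.0132) and Rsph6a (0.96, SE 0.31, FDR = 0.0404). Without DG METH 3, 14 members were called higher, and without SVZ METH 3 or METH 1 the number at an unadjusted p under 0.05 was 6 or 9. These sets share no library, and 21 members were higher in both at an unadjusted p under 0.05, which is 56.8% of those in saline and 87.5% of those in METH. The same share over all genes was not computed, so no excess over other genes can be read from this count. Some members passed the filter on low counts only with their SVZ libraries, where they are high. Examples are Cfap221 and Tekt3 in saline, and Drc7, Cfap206 and Tekt3 in METH. The counts and medians of both sets are therefore not independent of that filter.

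Each region was also set against the SVZ in the fit of all 32 libraries, so these comparisons share the SVZ libraries. Against the CA 11 members were called higher and 2 lower (5.23% and 3.77% of all genes), with a median log2 fold change of 1.17. Those called higher were Rsph6a, Cfap100, Dnai1, Spag8, Cfap99, Cfap221, Cfap126, Tekt1, Dnai2, Dnah12 and Drc7, and those called lower were Dnah8 (-3.26, SE 0.41, FDR = 3.42e-06) and Tekt5 (-2.67, SE 0.48, FDR = 1.28e-04). Against the DG 0 members were called higher and Dnah8 (-2.73, SE 0.41, FDR = 5.69e-05) and Tekt5 (-1.81, SE 0.49, FDR = 0.00717) lower (1.82% and 2.49% of all genes), with a median of 0.824, and by the unadjusted p 16 members were higher and 3 lower (22.9% and 16.7% of all genes). Without DG Sal 3 and DG METH 3, the DG libraries with the highest members, 21 were called higher. Against the NAc Rsph1 alone was called (2.28, SE 0.57, FDR = 0.00912, 0.986% of all genes), with a median of 1.38 and 39 members higher at an unadjusted p under 0.05 (18.3%), beside 43 higher and 3 lower against the CA (31.6% and 19.6%). Dnah8 (-0.62, SE 0.43) and Tekt5 (-0.52, SE 0.52) were not called there.

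All 3 comparisons moved with single libraries. Against the NAc, 15 members were called higher without NAc Sal 2, 10 without DG METH 3, 2 to 6 without DG Sal 3, SVZ Sal 2, METH 2 or METH 4, and 0 or 1 without any other. Against the CA, 1 to 5 were called higher without any of the CA libraries but Sal 2 or without SVZ Sal 4, METH 1 or METH 3, and 6 or 7 without NAc Sal 3, METH 1 or METH 4. Against the DG, 3 were called higher without DG METH 3 and 1 without DG Sal 3. There 1 member in place of 2 was called lower without DG Sal 1, Sal 4, METH 1, METH 3 or METH 4 or any SVZ library but METH 1.

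Within the SVZ the members varied widely among libraries of the same treatment. The median of the 60 members was 4.24, 5.75, 6.97 and 18.7 CPM in SVZ Sal 1 to 4 and 12.2, 3.27, 16.2 and 2.32 CPM in SVZ METH 1 to 4. SVZ Sal 4 held the highest value of the whole series for 39 members and SVZ METH 3 for 9. Of 58 members, 38 were higher in all 4 SVZ libraries without the EXTRA tag than in all 4 with it (4.35% of all genes), and 0 were lower in all (3%). Dnah12, for example, had a mean of 132 ± 69.8 CPM (SD, n = 4) without the tag and 27.7 ± 11.6 with it, and Cfap53, outside this pattern, 5.45 ± 1.44 and 5.70 ± 1.71. METH 1 and METH 2 share a library number in the headers, and 51 of 58 members were higher in METH 1, with a median ratio of 4.56 (1.01 over 15741 genes). METH 3 and METH 4 share another, and 49 of 55 members were higher in METH 3, with a median ratio of 6.37 (0.999 over 15734 genes). Whether such a pair comes from the same animal was not tested. If it does, SVZ METH holds fewer animals than its 4 libraries, and the SDs, SEs and p-values above and below do not account for that. The tag also goes with the thalamic markers, since 3 of the 4 tagged libraries (all but Sal 2) were those with high Prkcd and Mbp, and the part of tissue position in the result was not tested.

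Outside the SVZ the median of the members was highest in DG METH 3 (12.2 CPM), DG Sal 3 (9.25), CA Sal 2 (8.30), NAc Sal 2 (6.23) and CA METH 2 (4.88), and between 1.97 and 4.52 in the other libraries. DG METH 3 and DG Sal 3 exceeded SVZ Sal 1 to 3, METH 2 and METH 4.

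Markers of ependymal cells, of which no gene is a member, were high in the same libraries. The 15 listed markers found in the files, among them Ccdc153, Tmem212 and Hydin, summed to 54.5, 98.8, 136 and 409 CPM in SVZ Sal 1 to 4 and to 218, 27.0, 225 and 28.3 CPM in SVZ METH 1 to 4. Elsewhere they summed to 220 CPM in DG METH 3, 161 in DG Sal 3, 126 in NAc Sal 2, 109 in CA Sal 2 and 21.4 to 76.4 in the rest. Much of this sum was Hydin, itself a gene of the axoneme, at 233 CPM in SVZ Sal 4 and 127 in DG METH 3. The sum and the members are therefore not fully separate measures. Tmem212 was at 28.9 CPM in SVZ Sal 4 and at 0 reads in 7 of the 24 libraries outside the SVZ. In the SVZ against the other regions 5 of 13 ependymal markers tested were called higher and 0 lower, with a median log2 fold change of 1.75. Tmem212 (2.91, SE 0.78, FDR = 0.00488) and Ccdc153 (2.04, SE 0.57, FDR = 0.00636), chosen as defining markers after their values were seen, were among the calls. Hydin, a central pair gene, was at 1.56 (SE 0.51, FDR = 0.019) and Rarres2 at 0.31 (SE 0.17, FDR = 0.153). Choroid plexus markers, whose cells also carry cilia, were not called (0 of 13 tested, median 1.12, Ttr 2.73, SE 1.28, FDR = 0.0937). Their sum was 10170 CPM in SVZ METH 3 and 8292 in DG METH 3, but only 181 in SVZ Sal 4, 160 in SVZ METH 1 and 154 in DG Sal 3, where the members were also high. The part of these cells in the result was not tested.

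**Figure D4:**
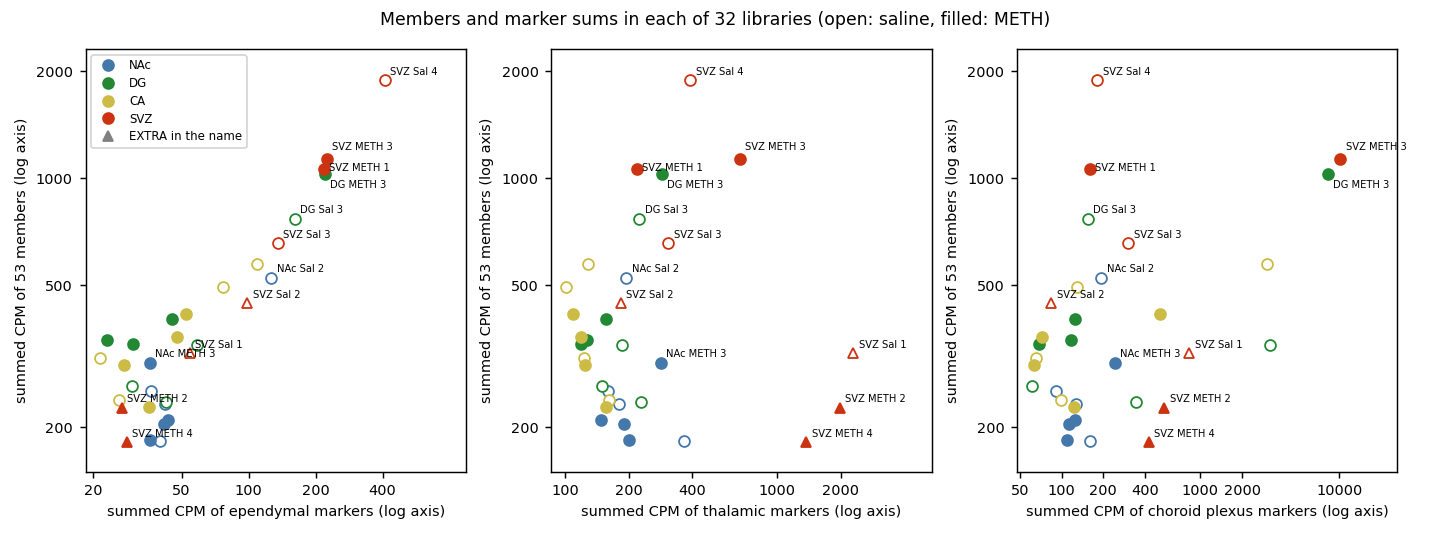
Summed CPM of the 53 members not known outside the axoneme (vertical) against summed CPM of ependymal, thalamic and choroid plexus markers (horizontal, log axes), 1 point per library, with triangles for the libraries tagged EXTRA. The sum of members runs from 181 CPM in SVZ METH 4 to 1884 in SVZ Sal 4 and is high where the ependymal sum is high. The ependymal sum includes the axoneme gene Hydin (233 of 409 CPM in SVZ Sal 4). Libraries with high thalamic sums lie low.

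The other genes of the ciliary machine, from lists that share no gene with the members, were described in the same way. In the SVZ against the other regions, 3 of 5 docking factors of the outer arm were called higher, including Ccdc114 (2.12, SE 0.51, FDR = 0.00232), while Efcab1 was at 0.82 (FDR = 0.0572). Of the light and light-intermediate chains, 4 of 8 were called, whereas Dnal1 (-0.19, SE 0.09) and Dnal4 (-0.05, SE 0.11) were not. Among further genes of the regulatory complex and its spacing ruler 3 of 11 were called, among those of the central pair 3 of 12, and among the proteins inside the doublets 3 of 13, Tppp3 (1.38, SE 0.31, FDR = 0.00132) included and the tubulin Tubb4b (0.02, SE 0.09) not. The cytoplasmic factors that preassemble dynein gave 1 call among 12 with 9 at an unadjusted p under 0.05, and Dnaaf5 was at 0.39 (SE 0.11, FDR = 0.00651).

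Genes shared by motile and primary cilia had smaller medians. Of 22 intraflagellar transport genes, which carry cargo along every kind of cilium, 0 were called, 15 were higher and 1 was lower by the unadjusted p, and the median log2 fold change was 0.278, with Ift140 at 0.35 (SE 0.09, FDR = 0.00444). The BBSome, an adaptor of membrane cargo, gave 0 calls among 12 and a median of 0.03. Receptors and regulators of the primary cilium of neurons gave 0 called higher and 2 lower among 10. Of 14 transcription and centriole amplification genes tested 2 were called, Ccdc78 (2.25, SE 0.49) and Myb (2.00, SE 0.51), both picked after their values were seen, while Rfx3 was at -0.70 (SE 0.25, FDR = 0.0289) and Rfx1 at -0.12 (SE 0.12, FDR = 0.451).

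To show the DNA in front of members that moved together, the 250 bases before the outermost annotated start were read from RefSeq promoters (build GRCr8), which hold 51 of the 60 members. The X-box is the palindromic motif bound by RFX factors, and GTTGCC is the letters of its arm; GTAAACA is a forkhead motif. Both strands were searched, and matches of GTTGCC can lie inside an X-box. An X-box was found in 6 of 51 members (11.8%) and in 308 of 27457 promoters (1.12%). GTTGCC was found in 12 members (23.5%) and in 2715 promoters (9.89%), and GTAAACA in 2 members (3.92%) and 891 promoters (3.25%). Of the 22 members called higher in the SVZ with a promoter 4 held an X-box (18.2%), and of the 29 others 2 did (6.9%). The 6 were Cfap298, with 2 separate matches, Cfap44, Dnah2, Dnai1, Dnai2 and Tekt2.

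The promoters of Dnai2, Tekt2, Dnai1 and Cfap298 are shown as examples of the match, chosen after the matches were seen, and those of Dnah8 and Cfap36, which had the lowest p in the SVZ comparison among members with a promoter, stand beside them. Capitals mark the X-box. The counts refer to rn6, where Dnai2 spans chr10:103266296-103301544, Tekt2 chr5:144341946-144345531, Dnai1 chr5:57947716-58017992, Cfap298 chr11:31094084-31103520, Dnah8 chr20:9313271-9560682, Cfap36 chr14:113618964-113644779.
Dnai2 (chr10:100258772-100259021, + strand): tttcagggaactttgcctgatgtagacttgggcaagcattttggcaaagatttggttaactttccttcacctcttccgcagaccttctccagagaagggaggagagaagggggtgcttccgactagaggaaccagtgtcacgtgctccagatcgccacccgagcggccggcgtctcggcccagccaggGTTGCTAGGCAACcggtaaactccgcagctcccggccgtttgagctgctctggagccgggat
Tekt2 (chr5:143907725-143907974, - strand): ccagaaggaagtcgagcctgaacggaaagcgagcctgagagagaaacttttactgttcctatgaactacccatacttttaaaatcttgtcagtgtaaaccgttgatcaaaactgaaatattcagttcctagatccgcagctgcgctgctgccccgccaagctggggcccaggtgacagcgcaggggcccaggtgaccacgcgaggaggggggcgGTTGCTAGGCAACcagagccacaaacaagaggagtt
Dnai1 (chr5:61525829-61526078, + strand): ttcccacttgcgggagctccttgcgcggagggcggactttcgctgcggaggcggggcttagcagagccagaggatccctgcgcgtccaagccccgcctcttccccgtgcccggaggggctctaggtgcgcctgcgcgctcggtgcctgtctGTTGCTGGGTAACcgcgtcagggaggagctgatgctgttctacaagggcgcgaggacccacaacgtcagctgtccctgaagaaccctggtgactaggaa
Cfap298 (chr11:43677383-43677632, - strand): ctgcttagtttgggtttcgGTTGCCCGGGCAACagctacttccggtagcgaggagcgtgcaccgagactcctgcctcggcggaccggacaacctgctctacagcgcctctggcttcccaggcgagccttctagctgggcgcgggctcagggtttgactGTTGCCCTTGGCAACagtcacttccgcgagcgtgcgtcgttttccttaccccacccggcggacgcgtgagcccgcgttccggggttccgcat
Dnah8 (chr20:8694345-8694594, + strand): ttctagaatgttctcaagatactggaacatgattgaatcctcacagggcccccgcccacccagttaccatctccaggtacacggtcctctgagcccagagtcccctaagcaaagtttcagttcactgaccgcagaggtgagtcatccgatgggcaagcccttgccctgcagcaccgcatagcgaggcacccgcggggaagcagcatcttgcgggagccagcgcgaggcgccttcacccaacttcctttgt
Cfap36 (chr14:107192407-107192656, - strand): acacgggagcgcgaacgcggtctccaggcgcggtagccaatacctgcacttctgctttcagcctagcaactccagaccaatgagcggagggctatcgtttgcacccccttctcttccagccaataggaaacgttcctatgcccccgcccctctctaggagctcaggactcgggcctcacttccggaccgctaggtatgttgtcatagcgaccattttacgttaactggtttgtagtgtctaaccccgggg

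The X-box of Dnai2 lies 62 to 50 bases before the start and that of Tekt2 36 to 24 bases before it, with the same letters. That of Dnai1 lies 99 to 87 bases before the start. Cfap298 carries matches at 231 to 218 and at 92 to 78 bases. The windows of Dnah8 and Cfap36 hold no X-box.

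METH was compared with saline in each region by itself (4 libraries against 4), the comparison the study was built for. Here a call needed a 1.5-fold difference beside the FDR threshold of 0.01. No member was called in any region: 0 of 58 in the SVZ, 0 of 45 in the NAc, 0 of 54 in the DG and 0 of 50 in the CA, where 0% of all genes were called by edgeR. DESeq2 called 0 members as well. At an unadjusted p under 0.05 the counts of members higher and lower were 0 and 0 in the SVZ (1.19% and 1.39% of all genes), 0 and 4 in the NAc (2.42% and 0.968%), 4 and 4 in the DG (6.35% and 6.42%) and 1 and 0 in the CA (4.37% and 2.79%).

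In the SVZ the median log2 fold change was -0.26 (0.0163 over all genes) with a median SE of 0.816. Dnah12 was at -0.43 (SE 0.87), Tekt1 at 0.04 (SE 0.63) and Dnah8 at 1.09 (SE 0.58, unadjusted p = 0.0997 in edgeR's test). The sign of the median turned with the libraries: it was 0.52 without SVZ Sal 4, -0.70 without METH 3 and 0.15 without Sal 1, METH 2 and METH 4.

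In the NAc the 4 members at an unadjusted p under 0.05 were all lower in METH. Cfap161, a protein inside the doublets, was at 6.17, 3.52, 1.48 and 1.45 CPM in saline and 0.280, 0.422, 0.476 and 0.934 in METH, without overlap (log2 fold change -2.49, SE 0.57, FDR = 0.999). The share of all genes without overlap between the treatments was not computed. Cfap161 overlaps LOC691427 on the opposite strand. Cfap43 (-2.48, SE 0.89), Dnah6 (-3.02, SE 1.09) and Cfap44 (-3.39, SE 1.45), the last chosen after its values were seen, were each highest in NAc Sal 2, which also had the highest ependymal sum of the NAc. Cfap43 was at 4.39, 27.7, 3.74 and 1.45 CPM in saline and 1.21, 1.43, 2.79 and 1.14 in METH. Without NAc Sal 2 the median of the members was 0.01 in place of -0.169, with 1 higher and 1 lower by the unadjusted p, and without NAc METH 3, whose markers went against its label, it was -0.36 with 7 lower.

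In the DG the members with the lowest p included Dnah9 and Dnah17, which were not high in the SVZ. Dnah17 was at 2.25, 1.63, 1.58 and 2.33 CPM in saline and 3.10, 4.63, 3.63 and 3.61 in METH, without overlap (log2 fold change 0.95, SE 0.23, FDR = 0.194). Dnah9, at the values given above, was also without overlap (1.34, SE 0.37, FDR = 0.221), as were Rsph10b at 14.5, 3.26, 16.9 and 8.93 CPM against 22.7, 27.1, 37.1 and 25.6 (1.38, SE 0.44, FDR = 0.268) and Cfap70 (0.58, SE 0.16, FDR = 0.222). The sum of dentate granule markers was 263, 88.8, 76.0 and 146 CPM in DG Sal and 496, 446, 113 and 348 in DG METH. Of 7 tested, 2 were higher and 0 lower by the unadjusted p (median log2 fold change 0.815). Prox1 had means of 71.0 and 212 CPM (1.59, SE 0.66, FDR = 0.375). By library the order was mixed. DG METH 3, with the lowest METH sum, held the highest Rsph10b and Cfap70 of the DG but the lowest Dnah9 of DG METH. DG Sal 3, with the lowest saline sum, held the highest saline Dnah9 and Rsph10b but the lowest saline Dnah17. The part of granule neurons in the result was not tested. Lower values were found for Cfap36 (-0.30, SE 0.08, FDR = 0.215), Cfap298 (-0.40, SE 0.11, FDR = 0.216), Spag7 (-0.32, SE 0.10, FDR = 0.263) and Rsph6a (-0.67, SE 0.27, FDR = 0.356). Of these, Cfap36, Cfap298 and Spag7 were also without overlap, and Rsph6a overlapped. The share of all genes without overlap between METH and saline was not computed, so these gaps do not show a change particular to the members. Dnah12, by contrast, had a log2 fold change of 0.30 with an SE of 1.28, with 1 high library in each group (DG Sal 3 and DG METH 3). The median of the members, 0.143, was 0.73 without DG Sal 3, -0.65 without DG METH 3 and -0.15 without both. With the library series (the name prefix in the headers) as a covariate it was -1.40. The library numbers of DG Sal 1 and 2 and of DG METH 1 and 2 in the headers are exchanged relative to the NAc and CA, and without these 4 libraries the counts by the unadjusted p were 3 higher and 0 lower.

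In the CA 46 of 50 members had a negative log2 fold change (median -0.19, 0.00513 over all genes, 51.1% of which were positive), but Cfap157 alone was under an unadjusted p of 0.05 and was higher (0.40, SE 0.15, FDR = 0.681). Rsph10b was at -0.81 (SE 0.43) and Dnah1 at -1.36 (SE 0.85). In the CA the dentate granule markers went the other way, with 2 of 7 lower by the unadjusted p and a median of -0.90, and their part was not tested. CA Sal 1 and CA Sal 2, the CA libraries with the highest ependymal sums (76.4 and 109 CPM), held the highest Dnah12 values of the CA. With the library series as a covariate the median was 0.458, and Dnah1 turned to 1.42.

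The difference between the METH effect in the SVZ and the mean effect in the other regions was tested as an interaction in the fit of all libraries. It gave 0 calls among 58 members and 0 of them at an unadjusted p under 0.05 (1.12% of all genes were higher and 1.87% lower), and DESeq2 also called 0. The lowest p belonged to Cfap157 (-0.60, SE 0.32, unadjusted p = 0.0677 in edgeR's test), followed by Cfap36 (0.19, SE 0.13) and Cfap97 (-0.23, SE 0.17). For Dnah12 the SE of the difference was 1.53 on the log2 scale.

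**Figure D5:**
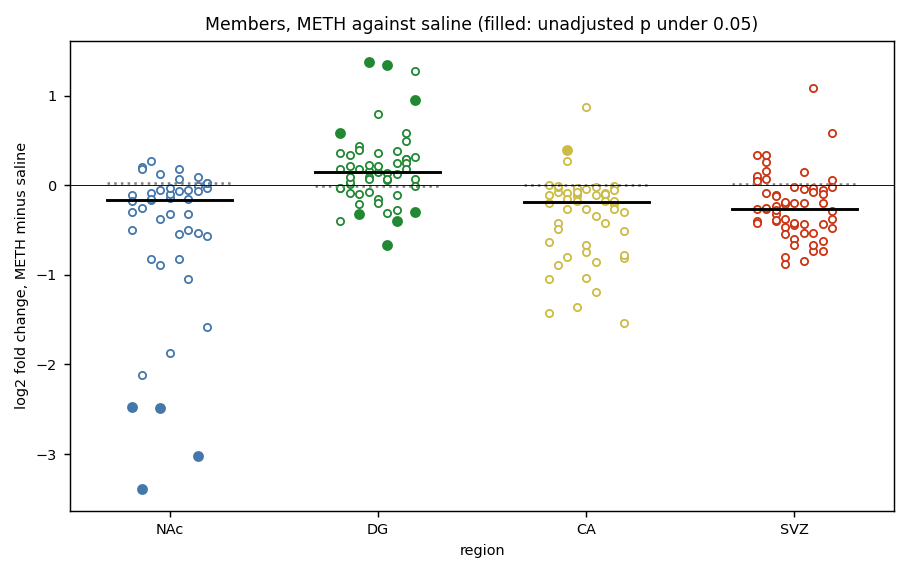
Log2 fold change of METH against saline for the members tested in each region, 1 point per member, filled where the unadjusted p is under 0.05. The black line is the median of the members (-0.26 in the SVZ, -0.169 in the NAc, 0.143 in the DG, -0.19 in the CA) and the dotted line that of all genes.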

How the data were processed

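RNA-seq libraries of ribosomal RNA-depleted total RNA came from 4 rat brain regions, with 4 METH and 4 saline samples each. Per the submitters' processing notes, the authors trimmed reads with cutadapt 2.7, checked them with FastQC 0.11.4, mapped them to rn6 with STAR 2.5.2b and counted them with featureCounts 1.6.3, without strand and at a minimum mapping quality of 10. The deposited values are whole-number counts of reads per gene and sample, not normalized. The file headers name Ensembl release 95, the methods a UCSC annotation. Genes that overlap on opposite strands (such as Dnah17 and Pgs1) and close copies (Spag6 and Spag6l) are therefore uncertain.

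Counts were tested in R 4.3.3 with edgeR 4.0.16 (upper-quartile normalization, filterByExpr, quasi-likelihood test, Benjamini-Hochberg adjustment over all genes tested). The SE was taken from the fold change and the F value. The RUVr step of the methods, whose number of factors is not stated in the sources used here, was an alternative with 2 factors. Others were TMM, DESeq2 1.42.0, other filters, the replicate number or library series as a covariate, and leaving out each library. The library series is the prefix of the library name in the headers, which do not say what it stands for. The fits without doubted libraries or with the EXTRA tag were chosen after seeing the data. Procedures were tested on simulated data.

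The members, lists and tests were chosen with earlier results of these data known. Named are, per name family, the 2 members with the highest level per kb, the 3 with the lowest p in each comparison, up to 6 abundant members that peak outside the SVZ and the 2 most abundant genes of each list. Genes beyond this rule are marked in the text, except those listed only as calls. Lists of markers cover ependymal, choroid plexus, neural stem, neuroblast, medium spiny, dentate granule, CA pyramidal, thalamic, oligodendrocyte, astrocyte, microglial and endothelial cells and testis. In 48 comparisons of libraries within groups, chi-square over genes was 16.4 to 191 per gene, so none was counted as a duplicate. Figures were made in Python 3.11.15 with matplotlib 3.10.9, pandas 2.3.3 and numpy 2.4.6.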

Additional observations from a re-analysis of the deposited data

Results flagged for a closer look

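In groups of 4 libraries, the highest and lowest values of 30 named members and of the member median were compared with the others by the ratio of the gap to the group's range (Dixon's test). Of 248 groups 32 held such a library, each of them high. A rate of about 1 in 20 by chance holds for single tests of normal values. Here the same libraries are counted again for each member, and the members are often high together on the unlogged CPM scale. An excess over chance can therefore not be read from this count. DG METH 3 and NAc Sal 2 accounted for 8 each, NAc METH 3 for 7 and DG Sal 3 for 4.

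In NAc Sal 2 these were Dnah12 (39.5 CPM), Cfap43 (27.7), Dnah6 (26.9), Dnah1 (23.9), Tekt1 (4.76), Cfap57 (3.85), Dnai2 (1.89) and the member median (6.22). In DG METH 3 they were Dnah12 (101 CPM), Cfap43 (51.8), Dnah1 (43.8), Tekt1 (11.2), Dnai1 (9.75), Cfap161 (6.53), Cfap57 (6.12) and Tekt2 (5.89). Both libraries also had the highest ependymal marker sum of their group.

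In NAc METH 3, the library without the striatal markers of its label, they were Dnah9 (58 CPM), Dnah12 (33), Rsph10b (7.96), Dnah17 (2.79), Dnai1 (2.59), Dnah6 (1.97) and the member median (3.23), while its ependymal sum of 35.9 CPM was the lowest of the NAc METH group. In DG Sal 3, the DG library with striatal markers, they were Dnah6 (42 CPM), Cfap161 (5.81), Tekt2 (4.42) and Cfap57 (3.35).

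The others were Dnah12 (229 CPM) and Cfap157 (8.26) in SVZ Sal 4, Rsph6a (6.83) in SVZ Sal 1, Cfap298 (25.5) in NAc METH 1 and the member median (4.88) in CA METH 2.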

How the results depend on the processing

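Counts of called members depended on the fit. Leaving out each library gave 0 to 34 members higher in the SVZ over all regions (24 in the fit as reported), 0 to 14 in METH libraries alone, 0 to 15 against the NAc, 0 to 3 higher and 1 to 2 lower against the DG, 1 to 16 against the CA, and 0 to 0 for METH in every region. With saline libraries alone in 4 groups, 0 were higher and 0 lower over all regions, 0 were higher against the NAc and the CA, and 0 and 1 were lower against the DG and the CA. With DESeq2, 23 members were higher against the NAc and 21 against the CA, and 1 was lower in saline and 1 in METH libraries alone. With 2 RUVr factors, 29, 5 and 26 were higher against the NAc, DG and CA, and 1 was lower in METH libraries, as with 4 region groups. With only a minimum of 10 reads, 0 were higher against the NAc and 6 against the CA. Without the EXTRA libraries, 27, 5 and 34 were higher against the NAc, DG and CA, with 1 lower over all regions and 1 against the DG. Without SVZ Sal 1, METH 2 and METH 4 the same counts were 23, 2, 30, 1 and 1. Without DG Sal 3 and DG METH 3, 13, 21 and 20 were higher against the NAc, DG and CA, and without DG Sal 3 and NAc METH 3, 3 against the NAc and 1 against the DG. Dnah1 under METH in the CA reversed to 1.42 with the library series as a covariate. The cause was not tested. The library series could not be fitted as a covariate where the SVZ was compared with other regions or by treatment, since the SVZ libraries form a series of their own. Of the refitted fold changes of single genes, 933 kept their direction and side of the threshold, 69 fell under it and 7 passed it.

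Samples with the same replicate number did not deviate together in a regular way in the groups compared here. Between treatments, 7 of 16 correlations were over 0.1 (-0.772 to 0.397, median 0.007). Between the SVZ and another region, 5 of 24 were (-0.283 to 0.39, median -0.0159). The number was not taken as a pairing. Among the NAc, DG and CA, 9 of 24 correlations were over 0.1 (-0.402 to 0.26), with all 4 over it for saline NAc and CA (0.118 to 0.245), which share library numbers and are not compared with each other here. With the replicate number as a block, 25 members were higher over all regions, 1 was lower against the DG and 23 in place of 37 passed an unadjusted p of 0.05 as higher in saline libraries.

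At these depths Dnah8, Tekt5 and Cfap221 rest on a few reads in some libraries, and the wide spread within the SVZ limits what the METH comparison can show.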

Other observations

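Marker lists not described above were compared between the SVZ and the other regions. Neuroblast markers had 2 of 9 called higher (7 at an unadjusted p under 0.05, median log2 fold change 1.06) and neural stem markers 2 of 10 (4 higher and 1 lower at that p, median 0.208). Medium spiny markers had 6 of 10 called higher, thalamic 8 of 8 and oligodendrocyte 5 of 10. Dentate granule markers had 0 of 7 called (1 lower at an unadjusted p under 0.05) and CA pyramidal markers 1 higher and 1 lower of 5. Astrocyte, microglial and endothelial markers had 0 of 8, 0 of 8 and 0 of 5 called, with 0, 2 and 0 higher and 3, 3 and 5 lower at an unadjusted p under 0.05 by edgeR. Of the 9 testis genes in the files, 0 passed the filter on low counts.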
